A study of Mus musculus with 6 samples.

Results

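The inverse BAR (I-BAR) genes are described here in vascular smooth muscle cells (SMC) from mice labelled as knockout (KO) or control for the orphan receptor GPRC5C, whose transcript was still read in the KO libraries. The members are the 4 genes Baiap2l1, Baiap2, Baiap2l2 and Mtss1, found by symbol among the 32179 genes of the deposited table, and all 4 were listed. The family was chosen by the normalised counts of these same 6 libraries, in which Baiap2l1 stood out between the groups. The comparison of KO with control libraries therefore chose the members, and their values in it are given as a description, with no test. The 2 groups were 3 libraries from iSM-G5C-KO mice induced with tamoxifen, labelled as a knockout, and 3 control libraries, labelled wild type. All were from male C57BL6J mice of 8 to 24 weeks that carried the mTmG reporter and, per the source label of every sample, the Gprc5c-floxed allele. The controls were also induced with tamoxifen. The labels do not name the promoter that drives Cre, and they do not say whether each library came from its own animal, so the spread between libraries may be partly technical. EGFP-positive cells, which are those where Cre had recombined, were sorted from skeletal muscle after depletion of CD31, CD45 and Ter119-positive cells, and RNA was sequenced from 5 ng of total RNA.

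I-BAR proteins carry a dimeric domain at their N-terminus that binds the inner face of the plasma membrane. In most of them, though not in all, this domain is curved and bends the membrane outwards. Other parts of the protein recruit actin regulators, which links membrane protrusions such as filopodia and ruffles to actin assembly. Baiap2 encodes IRSp53, which binds Rac1 and Cdc42 and recruits the WAVE complex, Eps8 and Ena/VASP proteins through its SH3 domain. Baiap2l1 encodes IRTKS, a substrate of the insulin receptor kinase, and Baiap2l2 encodes Pinkbar, best known from epithelia. Mtss1 encodes MIM, which together with its relative MTSS1L (ABBA) has an actin-binding WH2 motif and lacks the SH3 domain.

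Estimated depth was 1481716 to 2584564 reads in the KO libraries and 1556750 to 2935114 in the controls. Gprc5c, the targeted gene, stood at 328, 305 and 360 normalised counts in KO libraries 1, 2 and 3, against 428, 532 and 497 in the controls, which leaves 68.2% of the control mean. Control library 3 had 29707 genes above 0, against 20481 to 21179 in the other libraries. Summed values of 8 smooth muscle markers were 10376 to 12090 in KO libraries and 11545 to 12500 in controls, so these genes were read in every library. Markers of other cells were also read. Their sums were 396 to 922 in KO libraries and 338 to 671 in controls for 9 endothelial genes, and 92 to 447 and 88 to 365 for 8 leukocyte genes. For 7 pericyte genes they were 10401 to 17053 in KO libraries and 9761 to 14823 in controls. The pericyte sum lay above the smooth muscle sum in KO libraries 2 and 3 and in control library 3. These sums are not per length, so they do not give the share of each cell type. For 7 fibroblast genes the sums were 2572 to 4401 in KO libraries and 3120 to 4580 in controls. For 9 skeletal muscle fibre genes they were 1915 to 7820 and 1349 to 3303.

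The coding sequences of the family are related but not alike enough for reads to be confused between members. They are shown where 2 relatives share their longest identical run, which is in capitals, with the bases around it. Baiap2l1 and Baiap2 share at most 13 coding bases in a row, close to the start codon, which opens both sequences.
Baiap2l1: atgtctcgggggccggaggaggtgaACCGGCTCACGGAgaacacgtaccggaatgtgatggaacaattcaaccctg
Baiap2: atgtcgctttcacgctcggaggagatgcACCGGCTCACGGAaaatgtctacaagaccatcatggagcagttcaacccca
Baiap2l1 and Baiap2l2 share at most 17 coding bases in a row, near the 3′ end of their coding sequences.
Baiap2l1: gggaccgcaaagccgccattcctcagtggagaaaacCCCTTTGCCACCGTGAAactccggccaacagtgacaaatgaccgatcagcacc
Baiap2l2: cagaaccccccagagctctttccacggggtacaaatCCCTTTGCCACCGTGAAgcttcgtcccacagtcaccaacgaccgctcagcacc
Mtss1 and Mtss1l share a longer run, of 21 coding bases.
Mtss1: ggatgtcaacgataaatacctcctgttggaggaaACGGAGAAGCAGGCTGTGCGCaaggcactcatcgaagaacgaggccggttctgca
Mtss1l: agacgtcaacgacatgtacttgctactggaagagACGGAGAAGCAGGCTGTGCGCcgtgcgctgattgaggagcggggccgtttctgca
These come from GENCODE M21 transcripts (GRCm38), from the transcript with the longest coding sequence of each gene. That sequence holds 514 codons in Baiap2l1, 535 in Baiap2, 522 in Baiap2l2, 759 in Mtss1 and 715 in Mtss1l. Of all 50-base windows in their annotated transcripts, 0 were shared with another gene on either strand for Baiap2, Baiap2l2, Mtss1 and Mtss1l. For Baiap2l1, 73 of 3315 windows were shared, all with Dmrt1i, a noncoding gene that overlaps its first exon on the other strand.

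Baiap2l1 (ENSMUSG00000038859, chromosome 5, 144264526 to 144358112, minus strand, GRCm38) was the member with by far the lowest values in KO libraries relative to controls. It had 3, 6 and 4 normalised counts in KO libraries 1, 2 and 3, against 46, 46 and 25 in control libraries 1, 2 and 3. Every KO library lay below every control, and the lowest control was control library 3. The means were 4.33 ± 1.53 in KO libraries and 39.0 ± 12.1 in controls (SD, n = 3 each), so the KO libraries held 11.1% of the control level. In estimated reads, these values stand for 14 in the KO libraries together and 130 in the controls. The ratio from those reads was 11.4%, with an exact 95% interval of 6.04% to 19.8% that covers counting error only. That interval takes no account of Baiap2l1 having been chosen by these same values. On the log2(value + 1) scale the fold change came to -2.89 (standard error 0.40), and the differences between libraries with the same number were -3.55, -2.75 and -2.38. Only Tnn, the gene of tenascin W (named after its values were seen), had a lower log2 fold change among the 12735 genes with a mean of at least 10, and 8 genes (0.0628%) were at or below -2. In bulk RNA, fewer cells that express a gene and less RNA of it per cell cannot be told apart.

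Among the 4 members, all of which passed the filter on low values, Baiap2l1 was the 1 whose groups did not overlap, and in all genes tested 2.21% did not overlap with KO libraries lower. Baiap2l1 passed that filter through the controls alone, since its KO mean is under 10. With limma over all genes, 0 of the 4 members were called at an adjusted p of 0.05, where 0% of all genes tested were called. With the replicate number as a block 0 members were called as well, and 0.00785% of all genes, which is 1 gene, Cd300a. These shares describe the contrast that chose the family and nothing is read from them.

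**Figure D1:**
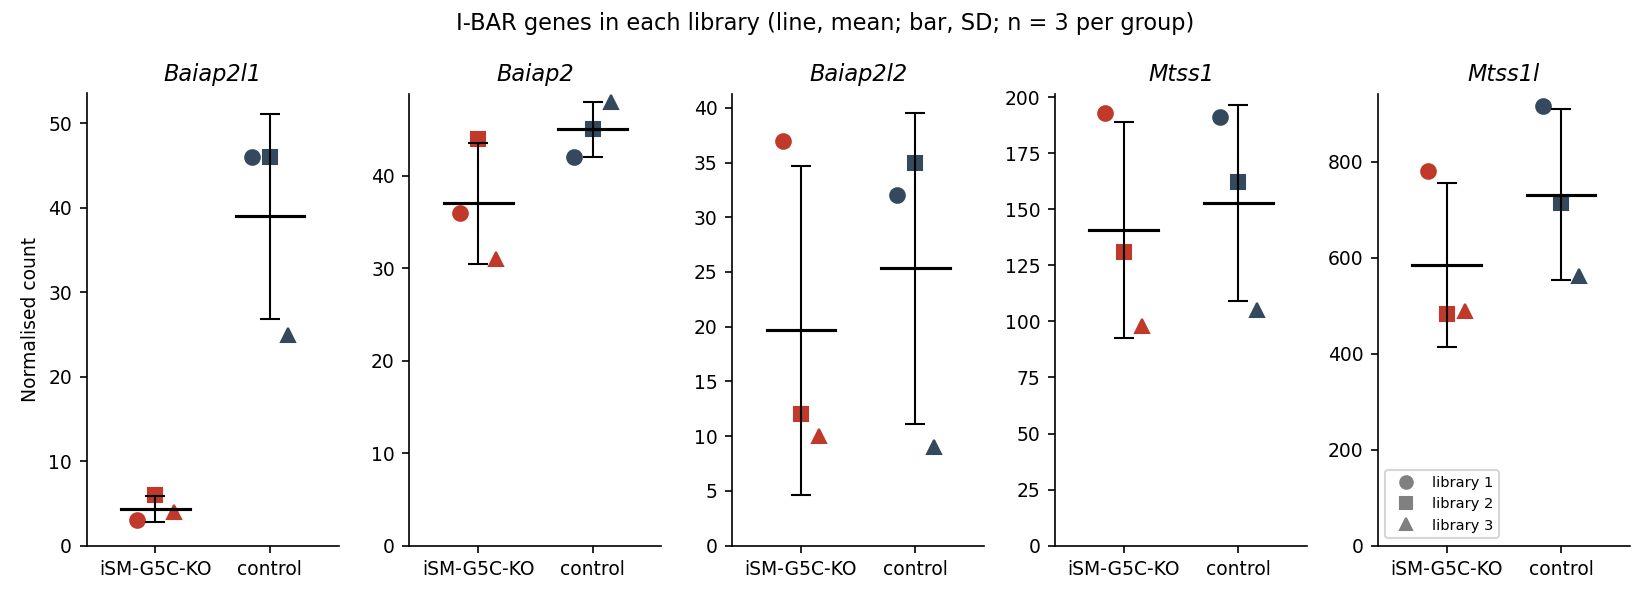
Normalised counts of the 4 members and of Mtss1l in each library, KO libraries on the left of each panel and controls on the right, with 1 marker shape per library number, the mean as a line and the SD as a bar (n = 3 per group). Baiap2l1 lies at 3 to 6 in KO libraries and at 25 to 46 in controls, and in the other 4 genes the groups overlap.

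**Figure D2:**
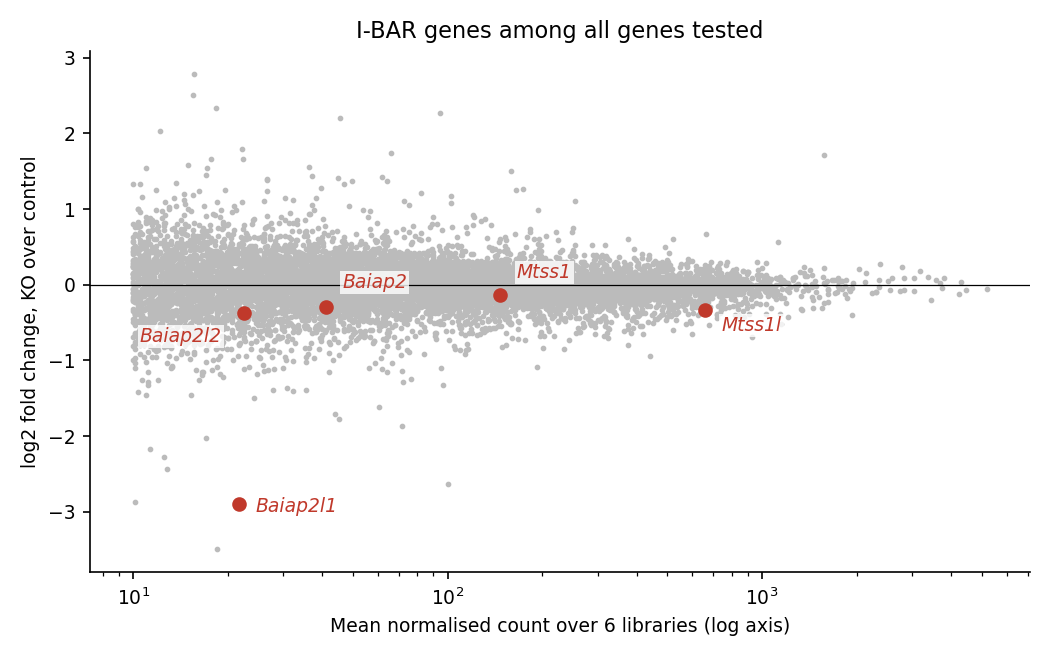
Log2 fold change of KO over control against the mean normalised count (log axis) for 12735 genes tested, with the I-BAR genes in red. Baiap2l1 lies at -2.89, and the other I-BAR genes lie between -0.38 and -0.13, among most other genes.

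None of the tested genes around Baiap2l1 differed by as much as it did. Within 1 Mb of the gene on either side 29 neighbours were tested, and their log2 fold changes ran from -0.24 to 0.33, with a median of 0.05. With limma 0 of them passed an adjusted p of 0.05, and 0 were at an unadjusted p under 0.05, where the shares over all genes tested were 0% and 1.81%, so these counts are near the background. Among them is Rac1, a GTPase that binds I-BAR domains, at 351, 344 and 352 in KO libraries and 349, 317 and 333 in controls. Bri3, on the opposite strand, overlaps the 3′ end of Baiap2l1 by 49 bp in the deposited coordinates, and had 22, 21 and 35 in KO libraries against 20, 27 and 24 in controls. Gm15708, a noncoding gene within the Baiap2l1 gene on the opposite strand, had 11, 8 and 8 in KO libraries against 9, 4 and 12 in controls. Dmrt1i had 0, 0 and 3 in KO libraries and 0 in every control. How strand entered the counting is not stated by the labels, so reads of these overlaps cannot be assigned to a strand. The nearest gene upstream of Baiap2l1 in the deposited table without overlap, the neuronal pentraxin gene Nptx2, had 4, 2 and 0 in KO libraries and 17, 24 and 3 in controls. A gap of 187789 bp separates the 2 genes, the mean value of Nptx2 was under the filter, its groups overlapped, and it is named after its values were seen.

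**Figure D3:**
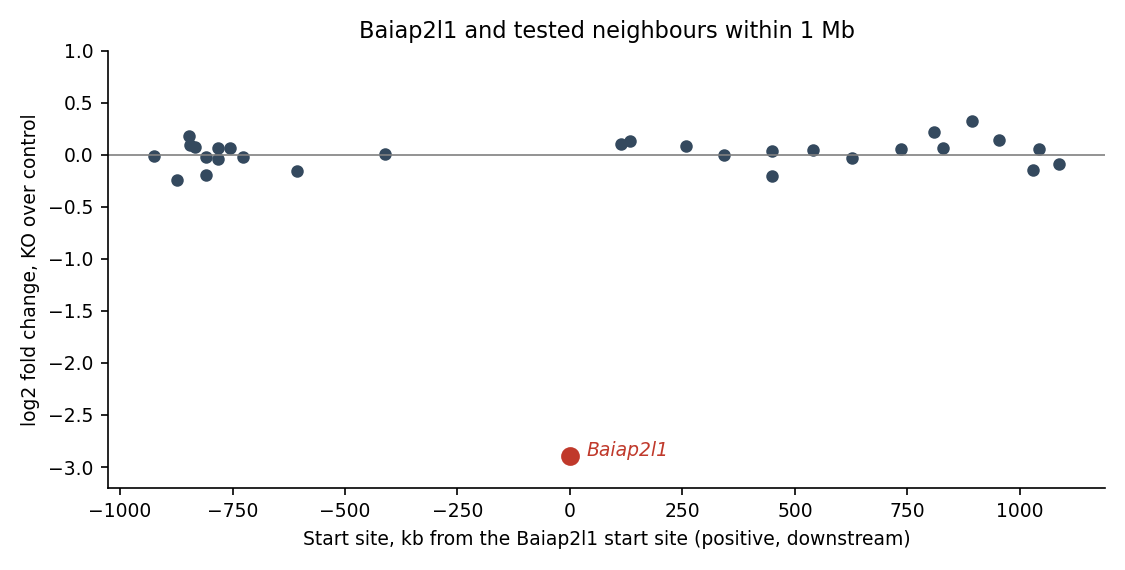
Log2 fold change of KO over control for Baiap2l1 (red) and its 29 tested neighbours within 1 Mb, by the distance in kb between their start site and that of Baiap2l1, downstream positive. The neighbours lie between -0.24 and 0.33, and Baiap2l1 lies at -2.89.

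Baiap2 (ENSMUSG00000025372, chromosome 11, 119942763 to 120006782, plus strand), the IRSp53 gene, had 36, 44 and 31 normalised counts in KO libraries and 42, 45 and 48 in controls. KO library 2 lay inside the control range, and KO libraries 1 and 3 lay below it, library 3 the furthest. The means were 37.0 ± 6.56 in KO libraries and 45.0 ± 3.0 in controls (SD, n = 3 each), with a log2 fold change of -0.29 (standard error 0.20.) From 113 estimated reads in KO libraries and 141 in controls the ratio was 84.6%, with an exact 95% interval of 65.4% to 109.1% for counting error. Baiap2 thus differed little between the groups where Baiap2l1 differed much, and the levels of the 2 genes are set against each other per length further on.

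Baiap2l2 (ENSMUSG00000018126, chromosome 15, 79258195 to 79285537, minus strand), the Pinkbar gene, had 37, 12 and 10 in KO libraries and 32, 35 and 9 in controls. The groups overlapped almost fully, and in both of them library 3 was the lowest. The means were 19.7 ± 15.0 and 25.3 ± 14.2 (SD, n = 3 each), with a log2 fold change of -0.38 (standard error 0.64.) Most of that difference came from the libraries numbered 2, which differed by -1.47 on the log2(value + 1) scale, against 0.20 and 0.14 for numbers 1 and 3. Without KO library 1 the log2 fold change was -0.93, and without control library 3 it was -0.97. It was between -0.16 and -0.04 without any other library.

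Mtss1 (ENSMUSG00000022353, chromosome 15, 58941244 to 59082026, minus strand), the MIM gene, had 193, 131 and 98 in KO libraries and 191, 162 and 105 in controls. Both groups span nearly the same range, and libraries with the same number lie close together. The means were 140.7 ± 48.2 in KO libraries and 152.7 ± 43.8 in controls (SD, n = 3 each), with a log2 fold change of -0.13 (standard error 0.30.) Its sign was not stable: it was 0.10 without KO library 3 and 0.05 without control library 1, while it was -0.38 without KO library 1 or control library 3. The differences by number were 0.01, -0.30 and -0.10.

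Mtss1l, the ABBA gene and not a member, was the I-BAR gene with the highest values. It had 781, 483 and 489 in KO libraries and 917, 714 and 562 in controls. The groups overlapped, because KO library 1 lay above control libraries 2 and 3. Each KO library was nevertheless below the control of its own number, by 0.23, 0.56 and 0.20 on the log2(value + 1) scale. Its log2 fold change came to -0.33 (standard error 0.24), which limma did not call (adjusted p = 0.999).

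All 4 members had a lower log2 mean in KO libraries, and their median log2 fold change was -0.33, where 6341 of all 12735 genes tested were lower and their median was 0.00. Baiap2l1 and Baiap2 were lower in KO libraries in each of the 3 numbers, as were 15.4% of all genes tested. The differences of Baiap2 were -0.22, -0.03 and -0.61, so a drop of the size of Baiap2l1 was seen in no other I-BAR gene.

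**Figure D4:**
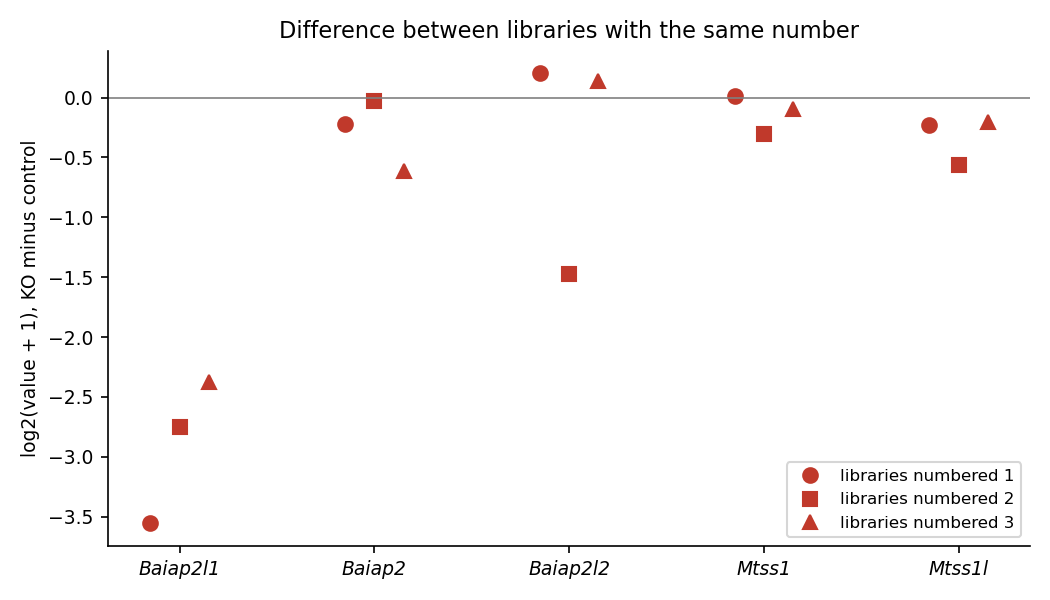
Difference between the KO and the control library of the same number, on the log2(value + 1) scale, for the 4 members and Mtss1l. For Baiap2l1 the 3 differences lie between -3.55 and -2.38, and for the other genes between -1.47 and 0.20.

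Levels can be compared between genes only per length. Per kb of annotated exon (GENCODE M21, all transcripts of a gene merged), Mtss1l had 110.0 ± 32.1 normalised counts in KO libraries and 137.6 ± 33.5 in controls (SD, n = 3 each), above every other I-BAR gene in every library. The 4 members were far lower. In KO libraries the order was Mtss1 at 12.4 ± 4.25, Baiap2 at 7.41 ± 1.31, Baiap2l2 at 7.21 ± 5.51 and Baiap2l1 at 1.29 ± 0.45 normalised counts per kb (SD, n = 3 each). In controls the order was Mtss1 at 13.5 ± 3.86, Baiap2l1 at 11.6 ± 3.6, Baiap2l2 at 9.29 ± 5.21 and Baiap2 at 9.01 ± 0.60. In the controls the ranges of these 4 overlapped, so their order is not resolved. In KO libraries those of Mtss1 (8.64 to 17.0), Baiap2 (6.21 to 8.81) and Baiap2l2 (3.67 to 13.6) overlapped as well. In KO libraries the highest Baiap2l1 value per kb, 1.78, lay below the lowest of any other member, 3.67 for Baiap2l2. Merged exons were longer than the transcript with the longest coding sequence, most of all in Mtss1, at 11345 against 4938 bases. Per kb of the transcript with the longest coding sequence, KO libraries had 28.5 ± 9.77 normalised counts for Mtss1, 15.5 ± 2.74 for Baiap2, 9.37 ± 7.16 for Baiap2l2 and 1.33 ± 0.47 for Baiap2l1 (SD, n = 3 each). On that scale controls had 30.9 ± 8.86 for Mtss1, 18.8 ± 1.25 for Baiap2, 12.1 ± 6.77 for Baiap2l2 and 12.01 ± 3.73 for Baiap2l1. On that scale Mtss1, at 19.8 to 39.1 in KO libraries and 21.3 to 38.7 in controls, lay above every library of the other members in the same group, which it did not do per kb of merged exon. Baiap2 and Baiap2l1 did not overlap on it in controls, at 17.5 to 20.1 and 7.70 to 14.2, so the place of Baiap2l1 depends on the length used. In normalised counts the control mean of Baiap2l1 exceeded that of 26.7% of all genes tested, so it was a lowly read gene there too.

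The promoters of Baiap2l1 and Baiap2 are shown because the KO and control libraries did not overlap in Baiap2l1 and did overlap in Baiap2, its relative. Each runs from 250 bases before to 50 after the start (RefSeq, GRCm38.p6), and capitals mark matches on either strand to the GC box GGGCGG, the CCAAT box CCAAT, the TATA box TATAAA and the E box CAGGTG. The promoter of Baiap2l1 lies at chr5:144358063-144358362 on the minus strand.
Baiap2l1: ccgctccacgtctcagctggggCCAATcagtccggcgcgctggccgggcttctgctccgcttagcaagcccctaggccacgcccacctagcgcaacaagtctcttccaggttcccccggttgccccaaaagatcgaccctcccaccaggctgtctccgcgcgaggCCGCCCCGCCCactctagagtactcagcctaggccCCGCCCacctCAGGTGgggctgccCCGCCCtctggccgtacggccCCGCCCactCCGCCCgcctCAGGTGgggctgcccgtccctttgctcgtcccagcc
The promoter of Baiap2 lies at chr11:119942842-119943141 on the plus strand.
Baiap2: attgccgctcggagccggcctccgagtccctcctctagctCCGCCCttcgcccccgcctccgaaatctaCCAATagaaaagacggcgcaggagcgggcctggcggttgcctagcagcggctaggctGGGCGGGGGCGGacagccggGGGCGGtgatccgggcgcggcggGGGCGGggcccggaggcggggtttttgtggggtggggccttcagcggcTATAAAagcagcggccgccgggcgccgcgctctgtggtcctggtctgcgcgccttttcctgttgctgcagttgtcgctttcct
Both are rich in G and C, at 71.0% for Baiap2l1 and 70.3% for Baiap2, against a median of 52.7% over 32851 promoters. The Baiap2l1 promoter has 6 GC boxes and that of Baiap2 has 5, of which some adjoin or overlap, and 35.7% of all promoters have at least 1. The general E box CANNTG, not marked, has 3 matches in the Baiap2l1 promoter and 1 in that of Baiap2, and 72.3% of all promoters have it. Its form CAGGTG occurs in the Baiap2l1 promoter 2 times, at -40 and 14 counted from 0 at the start. CAGGTG is not in the promoter of Baiap2, and 20.2% of all promoters have it. Both copies lie in the same 18-base run, cctcaggtggggctgccc, which stands in this promoter in 2 copies. TATAAA is in the Baiap2 promoter, at -33, and not in that of Baiap2l1, and 13.6% of all promoters have it. The promoter set held no entry for Baiap2l2 or Mtss1. Both Mtss1l promoters in it, not shown, had neither TATAAA nor CAGGTG. The motifs MCAT (CATTCC, in 14.7% of all promoters), AP-1 (TGANTCA, in 7.81%) and the CArG box, which binds serum response factor (in 1.63%), were in neither window. A match describes letters only and does not show that a factor binds there. Whether any of these motifs bears on the values of the genes was not tested.

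Partners of I-BAR proteins and other BAR-domain proteins were taken from lists by role, of which 88 genes were listed and 75 tested. With limma 0 of the 75 passed an adjusted p of 0.05 in either direction, and 0 were at an unadjusted p under 0.05, where 0% of all genes were called and 1.81% reached the unadjusted level. Of the 75, 39 had a higher and 36 a lower mean in KO libraries, and their median was 0.01 (log2 fold change), against 0.00 over all genes tested. With the replicate number as a block 0 passed as well, while 12 were at an unadjusted p under 0.05, where 10.2% of all genes were. A change of the size of Baiap2l1 was absent, since the lists ran from -0.69 to 0.63.

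The effectors that build actin networks had members on both sides of 0, and 0 of them were called. In the WAVE complex and N-WASP list 7 of 13 had a higher and 6 a lower mean, from -0.52 to 0.63, with a median of 0.03. Cyfip2, a subunit of the WAVE complex, had 198, 77 and 129 in KO libraries and 224, 194 and 135 in controls. Was, the WASP gene of blood cells, had 53, 77 and 91 in KO libraries and 27, 49 and 73 in controls, a log2 fold change of 0.63 (adjusted p = 0.999 with limma). The leukocyte marker sums in the same libraries were 280, 92 and 447 in KO and 361, 88 and 365 in controls, and their part in the value of Was was not tested. All 10 genes of the Arp2/3 list, whose complex nucleates branched filaments, lay between -0.08 and 0.17. Arpc5 and Arpc4, subunits of that complex, had the smallest p, with log2 fold changes of 0.17 and 0.15. Arpc5 had 140, 163 and 162 in KO libraries and 139, 139 and 133 in controls.

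Filopodial regulators split, with 7 of 13 higher, 6 lower and a median of 0.01. Eps8, which binds IRSp53 and bundles actin, had 416, 568 and 728 in KO libraries and 295, 348 and 598 in controls. Each KO library was above the control of its number, by 0.49, 0.71 and 0.28 on the log2(value + 1) scale, while the groups overlapped (adjusted p = 0.999 with limma). The pericyte marker sums, at 10401, 13089 and 17053 in KO libraries and 9761, 11502 and 14823 in controls, were also higher in KO in each number, as were the endothelial sums. The log2 means were higher in KO libraries for 7 of 7 pericyte and 9 of 9 endothelial genes, with 0 of them called. They were lower for 8 of 8 smooth muscle genes, with 0 called, and some of these were almost level. Acta2 had a plain mean of 1108 in KO libraries and 1107 in controls, and Des had 744 and 745. The part of these cells in the value of Eps8, and in that of the genes after it, was not tested. Enah, the Mena gene whose protein binds the IRSp53 SH3 domain, had 896, 515 and 309 in KO libraries and 1001, 793 and 547 in controls, lower in each number by 0.16, 0.62 and 0.82 (adjusted p = 0.999 with limma).

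Other BAR families, whose domains bend membranes mostly inwards, were likewise not called. F-BAR genes had a median log2 fold change of -0.01 over 13 tested, with 6 higher and 7 lower. Pacsin2, which shapes caveolae, had 523, 477 and 503 in KO libraries and 577, 565 and 536 in controls, without overlap, at a log2 fold change of -0.16 (adjusted p = 0.999 with limma). Nostrin, which binds endothelial nitric oxide synthase, had 72, 118 and 113 in KO libraries and 54, 60 and 113 in controls, in libraries whose endothelial marker sums were 396, 922 and 885 in KO and 338, 492 and 671 in controls. The part of those cells in this value was not tested. N-BAR and other BAR genes had a median of 0.02, with 9 of 15 higher. Bin1, the amphiphysin 2 gene, had 220, 229 and 211 in KO libraries and 242, 240 and 263 in controls, without overlap, at a log2 fold change of -0.17. Arhgap42, the gene of a GTPase-activating protein, had a log2 fold change of 0.30 (adjusted p = 0.999 with limma for both). Among all genes tested, 2.21% did not overlap with KO libraries lower, as in Pacsin2 and Bin1.

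**Figure D5:**
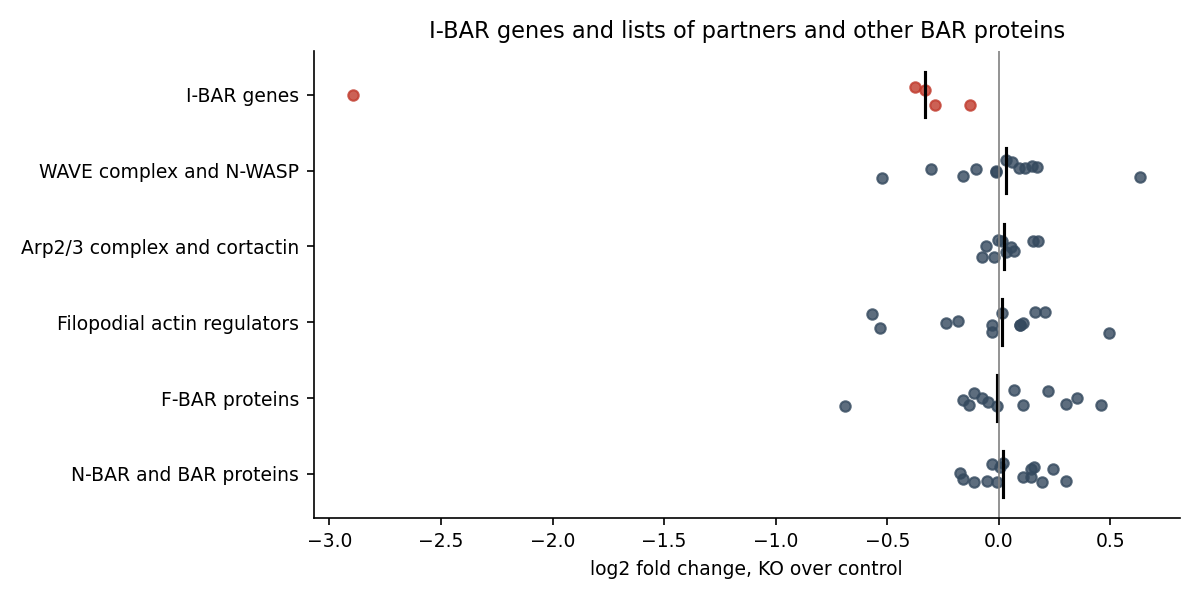
Log2 fold change of KO over control for the 4 members with Mtss1l (red, top row) and for the tested genes of 5 lists of partners and other BAR proteins, 1 point per gene, with the median of each row as a line. Baiap2l1 at -2.89 stands apart from the rest, which lie between -0.69 and 0.63.

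The genes most like each member over the 6 libraries were ranked by Pearson r of log2(value + 1) among genes with a mean of at least 50, as a description, since libraries of a number also share depth. For Baiap2l1 they were Lmna, the lamin A/C gene (r = 0.98), the receptor phosphatase gene Ptprs (0.94) and the zinc finger gene Zfp446 (0.94). Lmna had 755, 785 and 776 in KO libraries and 864, 838 and 830 in controls, so a high r did not mean a change of like size. In Lmna, Ptprs and Zfp446 every KO library lay below every control, as in Baiap2l1. That is the split that chose the family, so nothing more is read from these r values. For Baiap2 they were Aff3, Ccnh and Atp2c1, with r from 0.98 to 1.00. For Baiap2l2 they were Ky, Lypla1 and Ppp3cb, each with r of 0.99. Ky, a muscle Z-disc protein gene, had 147, 56 and 43 in KO libraries and 134, 125 and 42 in controls. For Mtss1 they were Borcs8, Eif1ax and Bcar3, each with r of 1.00 when rounded.

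Because Baiap2l1 is expressed in many epithelia, epithelial markers were set beside it. The sum of 8 such genes was 18, 6 and 21 in KO libraries and 14, 16 and 27 in controls. Cdh1, the E-cadherin gene, had 7, 0 and 1 in KO libraries and 10, 4 and 7 in controls, lower in KO in each number like Baiap2l1. Grhl2, an epithelial transcription factor gene, had 3, 1 and 0 in KO libraries and 2, 4 and 5 in controls. Krt19, a keratin gene, had 6, 5 and 14 in KO libraries and 2, 7 and 5 in controls. Epcam had 0, 0 and 3 in both groups, and the other 4 genes had at most 4 in any library, with Krt8 at 0 in every control. The part of epithelial cells in the values of Baiap2l1 was not tested. A list of 11 cartilage genes, added after values were seen, was set beside Baiap2l1 too. Its sum was 289, 200 and 278 in KO libraries and 722, 842 and 307 in controls. Its 8 tested members had a median log2 fold change of -1.36, with 7 lower. The list was picked with these values known, so nothing is read from its split between the groups. Sox9, a transcription factor of cartilage, had 18, 17 and 21 in KO libraries and 43, 35 and 46 in controls. Col2a1, which encodes the main cartilage collagen, had 5, 2 and 73 in KO libraries and 197, 321 and 4 in controls. Col11a1, a minor cartilage collagen gene, had 12, 30 and 17 in KO libraries and 60, 109 and 42 in controls, and Acan, the aggrecan gene, had 42, 46 and 8 in KO libraries and 146, 75 and 46 in controls. In the libraries numbered 3, Sox9, Col11a1 and Acan were thus lower in KO, and Col2a1 was higher. Col11a2 (73 in KO against 60 in control), Cnmd (8 against 4) and Matn3 (4 against 1) were also higher there. Col9a1 was equal at 7, and Comp, Hapln1 and Chad were lower. Summed over the list, the libraries numbered 3 had 278 in KO and 307 in control. Chad was the tested gene of the list with a higher log2 mean, at a log2 fold change of 0.07. The part of cartilage cells in the values of Baiap2l1 was not tested.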

How the data were processed

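RNA-seq of 3 iSM-G5C-KO and 3 control libraries was used as 1 deposited table. The deposited unit is a score, since the authors normalised the counts of each library and then rounded them, as the file name and the gaps between low values show. Per the submitters' processing notes, the tools were DESeq2 1.18.1, featureCounts 1.6.5 (Subread), STAR 2.6.1d and Trimmomatic 0.39, with mm10 and GRCm38.p5, and their roles are not named. The labels do not state how strand and duplicates were handled. The unit is not a raw count, so limma 3.58.1 in R 4.3.3 was run on log2(value + 1), a scale that understates the change of low genes, with an intensity trend, 2-sided, on 12735 genes with a mean of at least 10 (Benjamini-Hochberg, threshold 0.05). The fit was tested on simulated data. The worth of 1 read per library was estimated from the spacing of low values, so read numbers are estimates, and intervals cover counting error only.

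Same-numbered libraries deviated together (correlation over genes of 0.59, 0.31 and 0.44 for numbers 1, 2 and 3), so the number was used as a block in an alternative. No label says what it marks, and depth falls over the numbers in both groups. The members, lists, motifs and alternatives were chosen with earlier results of these data known. By rule the text names the 4 members, Gprc5c, in each partner list the genes that passed or else the 2 with the smallest p, and for each member the 3 genes with the highest r. 1 partner list and the genes it would name are left out of the text and figures, though counted in the totals. Others are named where they overlap or neighbour a member or bind one. Mtss1 differs slightly in its ends between the deposited coordinates, which are printed, and GENCODE M21, which gave exon lengths.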

Additional observations from a re-analysis of the deposited data

How the results depend on the processing

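The settings were 2 other pseudocounts, no filter on low values, upper-quartile scaling, limma without trend, sample quality weights, the replicate block, and leaving out each library in turn. The count of changed genes was 0 with limma, with 230 at an unadjusted p under 0.05. It was 1 with the replicate block (Cd300a, with 1305 at an unadjusted p under 0.05) and 2 with sample quality weights (Cd300a and Ifit1), and the cause was not tested. It was 0 in each of the other 11 alternatives, including each left-out library. No partner or BAR gene was called in any of the 13.

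Baiap2l1 was lower in all 13, with log2 fold changes of -3.18 to -2.71 over left-out libraries. Its groups did not overlap in the contrast that chose the family, so leaving out a library could not change the sign. With a pseudocount of 4 it was -2.34, because a larger pseudocount shrinks the fold of low values. Baiap2 ranged from -0.42 to -0.17, Baiap2l2 from -1.19, with sample quality weights, to -0.04, and Mtss1 from -0.38 to 0.10. The replicate block left the log2 fold changes of the members as they were, -2.89 for Baiap2l1, and changed no call of a member or list. Depth limits Baiap2l1 most, at 3 to 7 estimated reads in each KO library.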
